A study of Mus musculus with 2 samples.

Results

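Myelin is the sheath that oligodendrocytes wrap around axons, and phagocytes of the nerve take it up when it is damaged. The transcripts of Mbp and Mobp are known to be carried along oligodendrocyte processes and translated at the sheath, whereas membrane-spanning proteins such as Mag are made at the endoplasmic reticulum. Myelin RNA counted in a phagocyte can therefore come from swallowed myelin, from an oligodendrocyte captured in the same droplet or from RNA free in the suspension.

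The 9 genes described here are Mbp, Mobp, Mag, Mog, Cnp, Mal, Cldn11, Plekhb1 and Ermn, chosen by name among 31053 gene rows of the count table. The cells came from dissected and digested optic nerves of wildtype mice of the 129S1/SvlmJ strain, of both sexes. The injured library was made 2 weeks after optic nerve crush, a compression that severs the axons, given at 8 weeks of age, and the uninjured library came from nerves that had no crush, at 10 weeks of age. Each condition was 1 library of droplet-based 3′ RNA counts, labelled as macrophages and microglia, the phagocytes of the nerve. With 1 library per condition no difference between conditions has a replicate check or a test, and all intervals below are exact 95% intervals that cover counting error only, which makes them too narrow where molecules are clumped in few cells.

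RNA molecules were counted by their unique molecular identifiers (UMIs). In the injured library 727 cells gave 3697992 UMIs, a median of 1123 per cell. In the uninjured library 51 cells gave 87499 UMIs, a median of 888. In the injured library 144 cells had at least 5000 UMIs and are called deep here, and the other 583 are called shallow. The libraries shared 0 cell barcodes. Markers bore out the label for most cells: a UMI of the complement C1q chains C1qa, C1qb or C1qc, made by these phagocytes, was seen in 96.6% of injured cells and 90.2% of uninjured cells. A single uninjured cell was a haemoglobin-rich cell with 11100 UMIs, 10194 of them haemoglobin, and 5 injured cells carried T cell receptor complex genes and 0 C1q UMIs.

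The upstream windows of Mobp and Cnp are shown because, of the 5 myelin genes frequent enough to be ranked among all genes, these differed most in how their counts followed the depth of a cell, as given below. The letters are from the RefSeq table for GRCm38.p6, which had windows for 8 of the 9 genes (not Mbp), and run 5′ to 3′ on the plus strand up to the base before the annotated gene. Mobp lies at chr9:120149492-120149706 and Cnp at chr11:100574689-100574903, and capitals mark the letters ACAAAG, the core read by SOX factors, on either strand.
Mobp: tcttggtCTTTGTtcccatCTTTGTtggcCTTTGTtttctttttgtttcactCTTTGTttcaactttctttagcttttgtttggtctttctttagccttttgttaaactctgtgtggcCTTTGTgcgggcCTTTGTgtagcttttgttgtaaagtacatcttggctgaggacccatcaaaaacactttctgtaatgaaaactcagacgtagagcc
Cnp: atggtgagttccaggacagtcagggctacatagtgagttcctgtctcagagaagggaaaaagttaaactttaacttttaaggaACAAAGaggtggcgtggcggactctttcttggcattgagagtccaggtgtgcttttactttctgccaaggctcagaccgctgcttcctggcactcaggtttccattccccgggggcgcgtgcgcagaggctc
The Mobp window held 6 copies and the Cnp window 1 copy. At least 1 copy stood in 14.5% of 32851 RefSeq windows of 215 bases, and 1 window, that of Mobp, held 6 or more. Neither window held TATAAA, which 9.75% of windows did. The matches describe these letters, and RNA counts do not measure what the windows do.

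Myelin RNA was seen in most cells of both libraries and made up a larger share of the uninjured one. The 9 genes together gave 3560 UMIs in the injured library, 963 CPM (counts per 1000000 UMIs, 931 to 995), and 654 UMIs in the uninjured library, 7474 CPM (6912 to 8070). The level was thus 7.76-fold lower in the injured library (7.13 to 8.44). A UMI of at least 1 of the 9 genes was present in 567 of 727 injured cells (78.0%) and in 51 of 51 uninjured cells, with medians of 2 and 8 UMIs in a cell.

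How large the difference was depended on which cells were compared. Among cells under 5000 UMIs the injured level was 3785 CPM and the uninjured level 11636 CPM, a ratio of 3.07 (2.81 to 3.36). Among cells under 1000 UMIs it was 6134 against 13175 CPM, a ratio of 2.15 (1.87 to 2.45). Counted as UMIs per cell over all cells, the means were 4.90 and 12.8, a ratio of 2.62 (2.41 to 2.85). The direction was the same each time, and the largest ratio came from the measure in which the deep injured cells weigh most.

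The gene with most UMIs was Mbp, which encodes the basic protein that holds the layers of compact myelin together, with 2586 UMIs in the injured and 437 in the uninjured library. It was seen in 63.8% of injured cells at 699 CPM (673 to 727) and in 98.0% of uninjured cells at 4994 CPM (4537 to 5485). Other transcripts of the Mbp locus, called golli, are known in immune cells, and a count per gene does not separate them.

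Mobp, a basic protein of compact myelin in the central nervous system, gave 433 UMIs in the injured library, 117 CPM (106 to 129). In the uninjured library it gave 125 UMIs, 1429 CPM (1189 to 1702), which is 12.2-fold higher (9.92 to 14.9). Of injured cells 23.4% had a Mobp UMI, and of uninjured cells 76.5%, so the injured library had many cells with Mbp and no Mobp.

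Cnp, an enzyme of the non-compacted myelin, had 162 injured and 11 uninjured UMIs, 43.8 and 126 CPM. Per cell its means were 0.223 and 0.216, with an uninjured to injured ratio of 0.968 (0.474 to 1.78), so its per-cell count did not differ beyond counting error. Mag, an adhesion protein of the innermost myelin layer, stood at 29.5 and 103 CPM on 109 and 9 UMIs, with per-cell means of 0.150 and 0.176. Both genes had their lower level in CPM without a lower count per cell beyond counting error.

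The remaining genes rested on few UMIs. Mal, a raft-associated membrane protein of myelin, had 76 injured and 25 uninjured UMIs, 20.6 and 286 CPM, of which 8 uninjured UMIs lay in 1 cell. Cldn11, the tight-junction claudin of myelin, had 82 and 15 UMIs, 22.2 and 171 CPM. Plekhb1, a membrane-binding protein with a pleckstrin homology domain, had 45 and 18 UMIs, 12.2 and 206 CPM.

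Mog, on the outer surface of the sheath, had 29 and 8 UMIs, 7.84 and 91.4 CPM, and Ermn, an actin-binding protein of oligodendrocytes, had 38 and 6 UMIs, 10.3 and 68.6 CPM. All 9 genes had the lower level in CPM in the injured library when all cells were counted. The share of all genes that were lower by a ratio of at least 1.5 is given below. Among cells under 5000 UMIs the uninjured to injured ratios of Mag (0.696 to 3.49), Cnp (0.931 to 4.32) and Ermn (0.687 to 5.84) had intervals that include 1. Without the cell with most myelin RNA in each library, the injured to uninjured ratio of Ermn went from 0.150 to 0.281 and that of Mog from 0.0858 to 0.132.

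**Figure D1:**
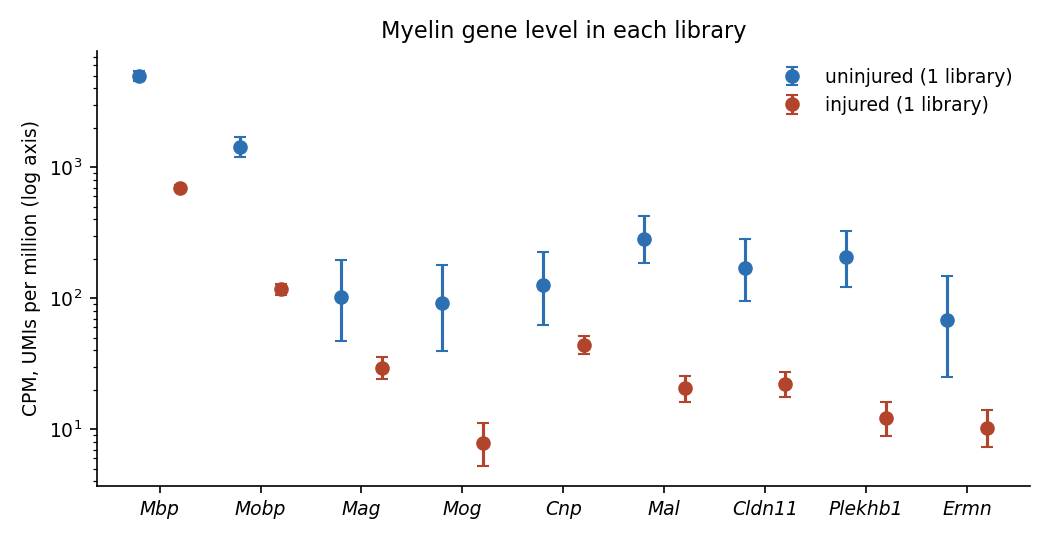
Level in CPM (log axis) of each of the 9 myelin genes in the uninjured (blue) and injured (red) library; points are 1 library each and bars the exact 95% Poisson interval. Mbp stands at 4994 against 699 CPM and Cnp at 126 against 43.8, and each red point lies under its blue one.

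Read against all genes, 21.8% of the 4021 genes with a UMI in 10% or more of either library's cells were lower in the injured library by a ratio of at least 1.5 on the scale of CPM plus 10, and 32.8% were higher by as much. Of the 9 myelin genes 7 entered that comparison and 7 were lower, but Mal, Cldn11 and Plekhb1 entered through the uninjured library alone, and Mog and Ermn did not enter. Among cells under 5000 UMIs the same 7 genes were lower, beside 40.8% of 1845 genes lower and 25.4% higher.

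Of 37 further genes of myelin and mature oligodendrocytes, 13 entered the comparison of libraries, 8 of them lower and 2 higher in the injured library. Of all genes compared, 21.8% were lower and 32.8% higher. Car2, Ptgds, Stmn4, Enpp2 and Tppp3 were among the 8, and with at most 69 injured UMIs each they entered through the uninjured library alone. Bcas1, a gene of myelinating oligodendrocytes, had 45.4 and 469 CPM in the injured and uninjured library. The 2 higher were Trf, the iron carrier transferrin, at 2379 and 1166 CPM, and Pmp22, a membrane protein best known from peripheral myelin, at 317 and 183 CPM. Pmp22 rested on 16 uninjured UMIs. Among cells under 5000 UMIs it was not higher, at 259 injured and 272 uninjured CPM, whereas Trf stood at 2027 and 1144. Kif5a, a neuronal kinesin, had 13 injured and 33 uninjured UMIs, and Slc1a3, an astrocyte glutamate transporter, stood at 137 and 994 CPM. Kif5a and Slc1a3 thus also had the larger share in the uninjured library. Kif5a was the only 1 of 10 neuron and axon markers to enter the comparison, through the uninjured library alone. It gave 33 of their 37 uninjured UMIs. Slc1a3 was the only 1 of 8 astrocyte markers to enter and gave 87 of their 96 uninjured UMIs. The part of such RNA in the myelin result was not tested.

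In the injured library the mean count of myelin molecules per cell rose over the shallow depth classes but did not follow depth over the whole range. In injured cells under 600 UMIs the mean was 3.24 UMIs of the 9 genes per cell, in those from 600 to 1000 it was 4.84, and from 1000 to 2000 it was 5.38. From 2000 to 5000 UMIs it was 5.70, from 5000 to 15000 it was 3.40, and above 15000 it was 5.93. The median was 1 UMI under 600 and 4 above 15000, and the share of cells with a UMI of the 9 genes 70.6% and 94.9%, so the median cell had more where cells were deeper. The level in CPM went from 6233 in cells of 600 to 1000 UMIs to 232 in cells above 15000. In the uninjured library the means were 8.50, 9.18, 18.0 and 21.6 per cell in the same first 4 depth classes. Its 4 deep cells had a mean of 13.5. Means thus rose with depth among shallow cells of both libraries. The uninjured class of 2000 to 5000 UMIs rests on 5 cells, with a median of 4.

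**Figure D2:**
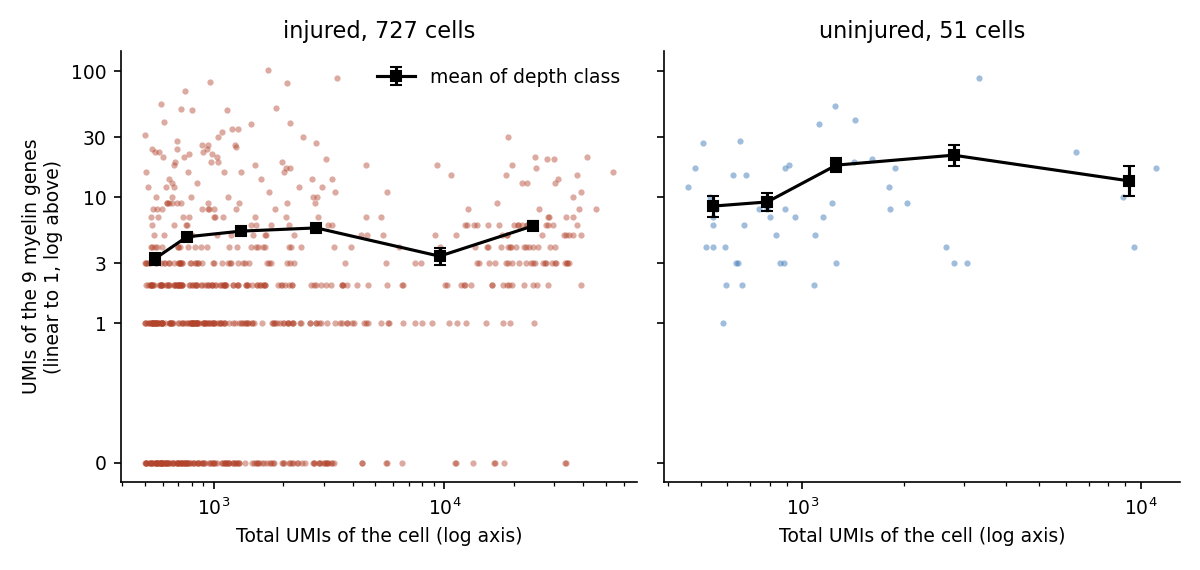
Total UMIs of each cell (log axis) against its UMIs of the 9 myelin genes (linear to 1, log above), for 727 injured and 51 uninjured cells; black squares are means of depth classes with exact 95% Poisson intervals. The injured means stay between 3.24 and 5.93 while depth spans 500 to 53972 UMIs, and the 8 injured cells with most myelin UMIs, up to 102, are all under 5000 UMIs.

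Between deep and shallow injured cells, mean depth differed 16.0-fold, and the median gene followed it, with 14.5-fold more UMIs per deep cell (5th to 95th percentile 8.58 to 23.8, over 4210 genes with at least 20 UMIs in shallow cells and a UMI in 10% or more of deep or of shallow cells). Phagocyte genes did so too: C1qa had 21.8-fold and Apoe, a lipid carrier, 22.7-fold more UMIs per deep cell. Mbp had 3.28 UMIs per deep cell and 3.63 per shallow cell, a ratio of 0.904 (0.816 to 0.999). Mobp had 0.417 and 0.640, a ratio of 0.651 (0.487 to 0.857), the lowest of the 4210 genes. Bcas1 was the next lowest at 0.810 and Mbp the third.

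Cldn11, Mal, Plekhb1 and Mag lay above Mbp but still far under the bulk of genes. Cldn11 had a ratio of 1.48 (0.867 to 2.46), Mal 1.65 (0.957 to 2.75), Plekhb1 1.83 (0.899 to 3.54) and Mag 2.35 (1.55 to 3.51). Mog at 0.467 (0.0905 to 1.52) and Ermn at 0.759 (0.259 to 1.84) had 3 and 6 UMIs in deep cells. Mog, Ermn, Cldn11 and Plekhb1 did not reach the 10% and are not among the 4210 genes, so the ranks of Mobp, Bcas1 and Mbp do not count them. Cnp had 0.701 UMIs per deep cell and 0.105 per shallow cell, a ratio of 6.70 (4.83 to 9.37), which came closest to the bulk of genes. All 9 ratios lay under the 5th percentile of those genes, although the interval of Cnp reached above it. On the scale of CPM, 5 of the 9 genes could be compared and 5 were lower in deep cells, beside 6.36% of 8142 genes lower and 4.19% higher.

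**Figure D3:**
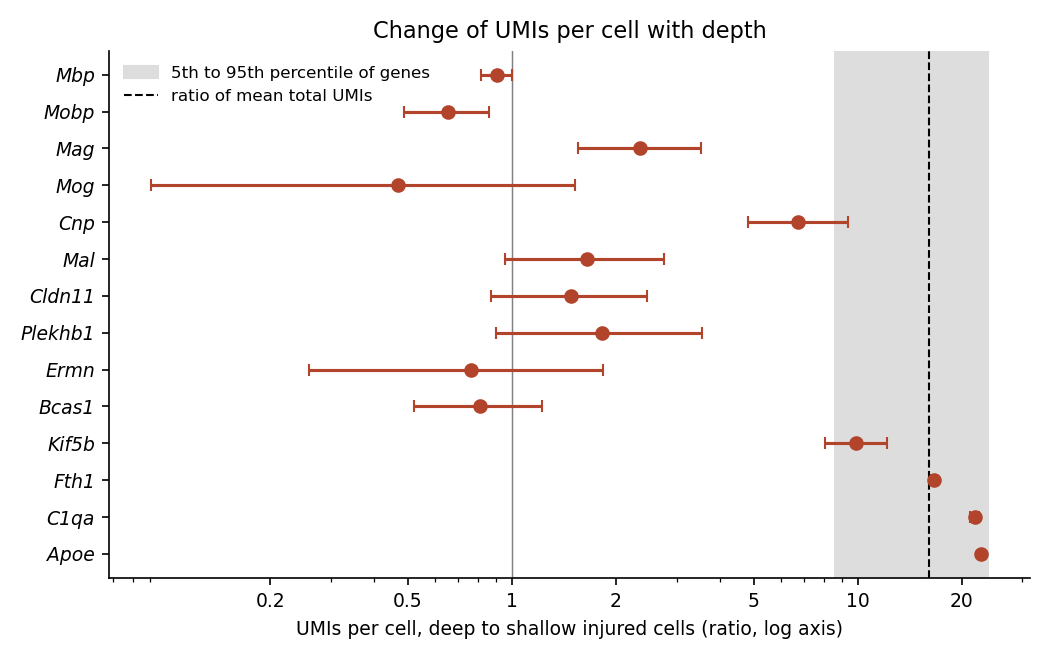
Ratio of UMIs per cell in 144 deep to 583 shallow injured cells (log axis) for the 9 myelin genes, Bcas1, Kif5b, Fth1 and the phagocyte-expressed C1qa and Apoe; bars are exact 95% intervals, the grey band the 5th to 95th percentile of 4210 genes and the dashed line the ratio of mean depth. Mbp and Mobp lie at or under 1, Cnp lies at 6.70, and C1qa and Apoe lie near the upper edge of the band.

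The proportions of the genes differed with depth and between libraries. Mbp made up 75.0% (73.3 to 76.6) of the UMIs of the 9 genes in shallow injured cells and 63.8% (60.2 to 67.3) in deep ones, and Cnp made up 2.16% (1.66 to 2.77) and 13.6% (11.3 to 16.3). Relative to Mbp, Mobp was more frequent in the uninjured library, with 28.6 UMIs per 100 of Mbp against 16.7 in the injured library, a ratio of 1.71 (1.39 to 2.09). Among shallow cells alone the values were 29.3 and 17.6, so the difference was also present without the deep cells.

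Mal had 5.72 uninjured and 2.94 injured UMIs per 100 of Mbp, a ratio of 1.95 (1.19 to 3.09), and Plekhb1 had 4.12 and 1.74, a ratio of 2.37 (1.29 to 4.17). Without the 1 uninjured cell that held 8 of its 25 UMIs the ratio of Mal was 1.52 (0.841 to 2.59), which includes 1, and that of Plekhb1 2.41 (1.27 to 4.35). With that cell, both differences were also seen in shallow cells, at 6.27 against 2.55 for Mal and 4.26 against 1.47 for Plekhb1. Cnp was the less frequent in the uninjured library, 2.52 against 6.26 per 100 of Mbp, but 2.26 against 2.89 among shallow cells, a ratio of 0.782 (0.341 to 1.58). Cldn11 stood at 3.43 and 3.17 and did not differ beyond counting error.

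Myelin RNA was clumped in few cells of the injured library at equal depth. As counted, 37 injured cells, 5% of all, held 40.0% of the UMIs of the 9 genes, and 160 cells held none. That share was no larger than for genes read as phagocyte or ferritin genes, with 39.1% for C1qb, 36.6% for Apoe and 42.3% for Fth1. After thinning to 500 UMIs per cell it was 51.7%, beside 15.3%, 14.1% and 17.2%. The 3 cells with most in the uninjured library held 28.0% as counted, beside 34.1% for C1qb, 85.6% for Apoe and 32.5% for Fth1. Thinned, the uninjured share was 24.8% (19.8 to 30.4), beside 23.7% for C1qb, 59.8% for Apoe and 20.3% for Fth1. Myelin RNA was thus not seen to be more clumped there than these genes beyond counting error. After each injured cell was thinned at random to 500 UMIs, the variance of Mbp over cells was 10.7 times its mean, the sixth highest of 1097 genes present in 5% or more of the thinned cells, and that of Mobp was 4.15 times its mean. The median of those genes was 1.09 and their 95th percentile 1.79. Ranked above Mbp were Apoe at 18.4, Malat1, Spp1, Gm42418 and Cd74. A high value was thus not particular to myelin RNA. The measure can also be larger at a higher mean, which was 35.6 thinned UMIs for Apoe and 1.47 for Mbp.

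To compare at equal UMI totals, a phagocyte gene with as many thinned UMIs was set beside Mobp. The 37 cells highest in Mobp held 74.2% of its 194 thinned UMIs, whereas the 37 cells highest in Aif1, a calcium-binding protein of microglia and macrophages, held 37.6% of its 194. Mobp was thus more concentrated than a phagocyte gene of the same total.

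**Figure D4:**
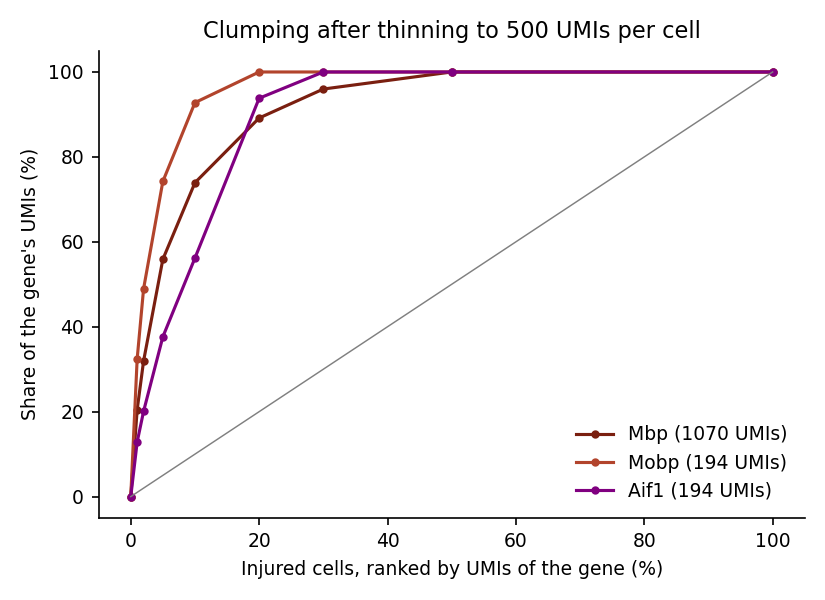
Share of a gene's UMIs held by the injured cells ranked by that gene, after thinning to 500 UMIs per cell (727 cells); the grey line is an even spread. The curve of Mobp lies above that of Aif1, which has the same 194 UMIs.

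After the same thinning, 47.0% (43.4 to 50.7) of 727 injured cells and 91.8% (80.4 to 97.7) of 49 uninjured cells had a UMI of the 9 genes, and 2 uninjured cells were left out as too shallow. The thinned means were 1.99 and 5.59 UMIs per cell. The difference between libraries in detection was therefore present at equal depth as well, 78.0% and 100% being the values without thinning.

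Myelin RNA was also counted in cells with 0 C1q UMIs, and its source there was not tested. The 5 cells of the injured library that carried T cell genes had 0, 1, 1, 4 and 5 UMIs of the 9 genes, and 4 of 5 (80.0%, 28.4 to 99.5) had at least 1, at a median depth of 5387 UMIs. The 78.0% of injured cells with such a UMI was not above that share, so a UMI alone is not read as expression or uptake, although 5 cells, deeper than the injured median of 1123 UMIs, give that share no precision. Above the highest of these 5 cells stood 155 injured cells, which held 74.9% of the UMIs of the 9 genes. The haemoglobin-rich uninjured cell, with 0 C1q UMIs, had 16 UMIs of Mbp and 1 of Mobp, more than the uninjured median of 8. Its depth was 11100 UMIs, 10194 of them haemoglobin, against an uninjured median of 888. Only 10 uninjured cells had more UMIs of the 9 genes than that cell, holding 54.4% of those in the library. For the uninjured library this comparison rests on that 1 cell.

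Among shallow injured cells, Mobp went with Mbp far more closely than Mag or Cldn11 did. The mean of Mobp was 0.0788 UMIs per cell in 241 cells with 0 Mbp UMIs, 0.165 in 200 cells with 1 to 2, 0.800 in 80 cells with 3 to 9, 2.06 in 34 cells with 10 to 19 and 6.68 in 28 cells with 20 or more. Mag had 0.0830, 0.135, 0.138, 0.176 and 0.179 in the same classes. Cldn11 had 0.104 in the first and 0.143 in the last class. The classes were similar in depth, with medians of 898 UMIs in the first and 1001 in the last.

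**Figure D5:**
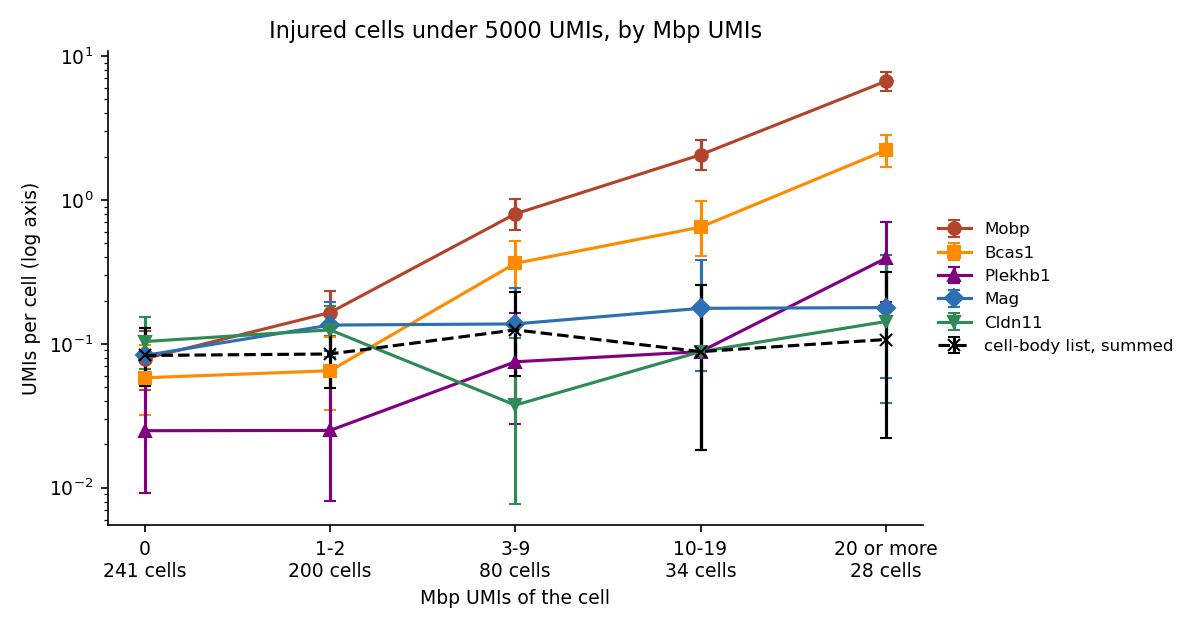
UMIs per cell (log axis) of Mobp, Bcas1, Plekhb1, Mag, Cldn11 and the summed list of oligodendrocyte cell-body genes in 583 shallow injured cells, grouped by their Mbp UMIs; bars are exact 95% Poisson intervals. Mobp goes from 0.0788 to 6.68 and Bcas1 from 0.0581 to 2.21, while the cell-body list goes from 0.0830 to 0.107 with overlapping intervals.

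Set side by side, 62 shallow injured cells with at least 10 Mbp UMIs had 52.6-fold more Mobp per cell (33.0 to 88.8) than the 241 with 0. The ratio was 9.07 (3.27 to 28.8) for Plekhb1, 4.44 (1.41 to 14.4) for Ermn, 3.63 (1.62 to 8.06) for Cnp and 3.43 (1.59 to 7.30) for Mal. For Mag it was 2.14 (0.925 to 4.68), for Mog 2.59 (0.759 to 8.15) and for Cldn11 1.09 (0.397 to 2.59), all with intervals that include 1.

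Grouping the cells by Mobp allowed Mbp to be compared with the other genes without setting the classes itself. The 23 shallow injured cells with 5 or more Mobp UMIs had 25.0-fold more Mbp per cell (22.5 to 27.8) than the 459 with 0. Bcas1 was 30.8-fold (19.8 to 48.5) and Plekhb1 18.4-fold (7.68 to 43.8) higher per cell, while Mag at 1.3 (0.259 to 4.05) and Cldn11 at 1.22 (0.244 to 3.79) had intervals that include 1. Relative to Mbp, Cldn11 accordingly went from 7.79 UMIs per 100 of Mbp (5.70 to 10.4) in cells with 0 Mobp to 0.381 (0.0783 to 1.12) in cells with 5 or more, and Mag from 7.31 (5.30 to 9.87) to 0.381 (0.0783 to 1.12). Bcas1 had 5.56 (3.84 to 7.82) and 6.85 (5.10 to 9.03) per 100 of Mbp in the same cells. Among these shallow injured cells Bcas1 thus kept its ratio to Mbp within counting error, and Cldn11 and Mag did not.

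In deep injured cells neither ratio was lower where Mobp was higher. Mag stood there at 8.15 (4.82 to 13.0), 8.50 (4.42 to 15.0) and 9.30 (3.89 to 19.2) per 100 of Mbp with 0, 1 and 2 to 4 Mobp UMIs, and Cldn11 at 2.58 (0.935 to 5.69), 7.19 (3.51 to 13.2) and 5.81 (1.84 to 14.1). In uninjured shallow cells Cldn11 stood at 4.65 per 100 of Mbp (0.546 to 17.9) with 0 Mobp UMIs and at 3.54 (1.40 to 7.42) with 5 or more, on 2 and 7 UMIs. Mag stood at 2.33 (0.0576 to 13.7) and 1.01 (0.121 to 3.70), on 1 and 2 UMIs. A difference was not detectable in uninjured cells at this depth.

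Transcripts of the oligodendrocyte cell body were few, and their count per cell did not differ with Mbp beyond counting error. The 9 nuclear regulators Olig1, Olig2, Sox10, Myrf, Nkx6-2, Sox8, Zfp488, Nkx2-2 and St18 gave 69 UMIs in the injured library, 1.94 per 100 UMIs of the myelin genes (1.51 to 2.45), and 8 in the uninjured library, 1.22 per 100 (0.528 to 2.41). In the 62 cells with at least 10 Mbp UMIs they had 6 UMIs, 0.0968 per cell, and in the 241 with 0 they had 20, 0.0830 per cell, a ratio of 1.17 (0.383 to 3.01). In whole oligodendrocytes this list was not measured here, so the ratio of such a cell is not known from these data.

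Phagocyte transcripts were present in cells with much Mbp but fewer where Mbp was highest. The 15 phagocyte markers summed to 52.1 UMIs per cell (51.2 to 53.1) in the 241 cells with 0 Mbp, 61.0 (58.4 to 63.7) in the 34 with 10 to 19 and 32.8 (30.7 to 35.0) in the 28 with 20 or more. C1qb, a C1q chain, had 7.70, 10.0 and 5.36 UMIs per cell in these classes. In the 23 cells with 5 or more Mobp UMIs it was at 0.750 (0.626 to 0.891) of its level in the 459 with 0, and Apoe at 0.668 (0.632 to 0.706). A C1q UMI was seen in 62 of 62 and in 231 of 241 of the cells with at least 10 and with 0 Mbp UMIs. Phagocyte markers took under 1% of UMIs in 11 of the 62 and 23 of the 241 cells, so a minority of the cells high in Mbp had few. The 10 neuron and axon markers had 8 UMIs in the 62 cells and 3 in the 241, 5 and 1 of them from Kif5a.

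The single cells with most myelin RNA were unlike each other. The injured cell with most had 102 UMIs of the 9 genes, 90 of Mbp and 10 of Mobp, beside 66 of phagocyte markers among 1710 in all. The next had 89, with 67 of Mbp, 16 of Mobp and 4 of Cnp, beside 15 of Bcas1, 8 of phagocyte markers and 69 of Cd74, a chain of antigen presentation. The third had 82 among 957 UMIs, with 7 of phagocyte markers. In the first 8 injured cells Mbp and Mobp together held nearly all of these UMIs.

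The uninjured cell with most had another make-up. It held 89 UMIs of the 9 genes, with 56 of Mbp, 12 of Mobp, 8 of Mal, 4 of Cldn11, 3 of Mog and 3 of Ermn, beside 70 of phagocyte markers among 3325. That cell supplied 8 of the 25 Mal UMIs of its library. The next uninjured cell had 53, with 40 of Mbp and 8 of Mobp.

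Over the 727 injured cells thinned to 500 UMIs, the genes named here as most like the summed myelin genes were found by Pearson correlation of log counts, given as a description of cells that share a library. Bcas1 came first with r = 0.44, then S100b, a calcium-binding glial protein, with 0.33. Fth1, the ferritin heavy chain, had 0.28, Gm42418, an unnamed locus, 0.27 and Kif5b, a heavy chain of kinesin-1, 0.20. Rplp1, 1810037I17Rik, Qdpr and Cenpb lay between 0.14 and 0.17. Within the 9 genes, r with Mbp was 0.64 for Mobp and 0.22 for Plekhb1, and 0.14 or less for the rest. At the other end Apoe had −0.17, Lgmn, a lysosomal protease, −0.15 and Lyz2, a lysozyme, −0.14, and such weak values in sparse counts are no finding.

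S100b and Bcas1 had 12.3-fold (7.80 to 19.9) and 23.3-fold (13.2 to 44.5) more UMIs per cell in the 62 cells with at least 10 Mbp UMIs than in the 241 with 0. Fth1 had 40.0 and 18.4 UMIs per cell, a ratio of 2.18 (2.08 to 2.29). Ctsd, a lysosomal protease, had 18.1 UMIs per cell with 0 Mbp, 19.6 with 10 to 19 and 10.5 with 20 or more. The 24 genes of uptake, lysosome and lipid handling summed to 137 UMIs per cell (136 to 139) with 0 Mbp, 139 with 1 to 2 and 123 with 3 to 9. With 10 to 19 they summed to 168 (164 to 173) and with 20 or more to 77.3 (74.1 to 80.6). Relative to depth, the median cell had 97886, 99420, 80442, 91291 and 52617 CPM of them in these classes. The higher value with 10 to 19 was thus not seen in the median cell's CPM, and the last class was lowest on both measures.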

How the data were processed

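The deposited table holds raw UMI counts per gene and cell, and a line of it gives each cell's condition. Per the series' text and the submitters' processing notes the reads were aligned to mm10 with Cell Ranger 1.3, and cells with 200 to 6500 genes were kept by the authors with Seurat 4.0.3. The stated 778 cells are all in the table. How they were chosen as phagocytes, how doublets were treated and whether counting used strand are not given in the sources used here. Cnp (Dnajc7), Ermn (Galnt5), Mobp (Gm38642), Mog (Gm22388) and Mbp (a pseudogene) overlap other genes, and their counts could be shared. No doublet caller was run. Counts were summed per library or class of cells and divided by total UMIs. Intervals are exact Poisson, Clopper-Pearson or conditional binomial intervals (numpy 2.4.6, scipy 1.17.1), and the code was tested on simulated data. The 26 rows with date-like names were left out of gene counts. The genes, marker lists and rules were chosen with earlier results of these data known. Named genes are the 9 members, up to 4 markers per list with at least 20 UMIs, those of the 10 genes most like the members that are reported here and the 8 cells per library with most, and further genes were named after their values were seen.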

Additional observations from a re-analysis of the deposited data

How the results depend on the processing

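No paired analysis was possible because each condition is 1 library. The injured to uninjured level of the 9 genes, 0.129 as reported, was 0.176 with median-of-ratios size factors, 0.110 without haemoglobin and mitochondrial genes, 0.327 with cells weighted equally, 0.115 without the haemoglobin-rich cell and 0.113 without cells that had a cell-body UMI. It was 0.325 under 5000 UMIs and, among alternatives added after seeing the data, 0.100 without cells in which phagocyte markers took under 1% of UMIs, 0.466 under 1000 UMIs and 0.382 per cell. Of single genes, Ermn reversed to 1.70 under 1000 UMIs and Cnp to 1.03 per cell, and Mog, with 20 injured and 0 uninjured UMIs under 1000, gave no ratio. The 876 genes lower became 484 with size factors, 583 with a pseudocount of 50, 3101 without the filter and 90 at a ratio of 4. Detection at equal depth, 47.0% and 91.8%, was 78.0% and 100% unthinned, and 25.4% of injured cells had at least 2 UMIs. The shallow to deep level, 15.1, was 12.3 divided at 2000 UMIs, 11.0 at 15000 and 17.2 with equal weights. The Mbp share in deep cells was 69.0% divided at 2000 UMIs. The share in the top 5% of cells, 40.0%, was 51.7% thinned, 44.9% under 5000 UMIs, 42.1% without cells with a cell-body UMI and 37.8% without cells low in phagocyte markers. The other 47 of 71 values were classed as unchanged. Levels, shares and ratios among them stayed within their intervals, but counts of genes have no interval and still differed. For example, the 876 became 752 under 5000 UMIs and 1171 without the haemoglobin-rich cell. Of the 9 genes, the 7 lower became 9 without the filter and 5 at a ratio of 4. The causes were not tested. With 51 uninjured cells, 0 counts there allow up to 34.3 CPM.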
